A study of Mus musculus with 6 samples.

Results

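The transcripts described here are those of 7 genes for developmental transcription factors, the Single-minded genes Sim1 and Sim2 and the doublesex-related genes Dmrt1, Dmrt2, Dmrt3, Dmrta1 and Dmrta2. They were taken by symbol from 24453 counted symbols, and all 7 symbols were present. They had been proposed with their difference between the genotypes already known, so their control and Eed cKO values are given as a description with no test of their own. The RNA was that of back skin epidermal cells of mice at postnatal day 0, sorted as EpCAM-positive and Sca1-positive with high α6-integrin, a gate that enriches progenitors of the interfollicular epidermis. There were 3 control libraries and 3 libraries of the genotype labelled Eed-/- (Eed cKO, conditional knockout). The Eed protein is a scaffold that Polycomb repressive complex 2 (PRC2) needs to methylate lysine 27 of histone H3, a mark of silenced genes. The sources used here do not give the Cre driver, the alleles of the control mice or whether each library is 1 animal, so the spread between libraries may be technical in part.

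Sim proteins carry a basic helix-loop-helix and a PAS domain and bind DNA as dimers with Arnt or Arnt2. Sim1 is needed for neurons of the hypothalamic paraventricular nucleus, and Sim2 acts in the ventral forebrain and in craniofacial development. Dmrt proteins share the DM domain, a zinc-binding DNA-binding module. Dmrt1 maintains testis cell fate, Dmrt2 patterns the dermomyotome of the somite, Dmrt3 specifies a class of spinal interneurons, and Dmrta1 and Dmrta2 act in the developing telencephalon. Genes of such developmental regulators are classical PRC2 targets, which carry the mark at CpG-rich promoters in cells that do not use them.

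Control libraries held 25481306 to 29998531 counts and Eed cKO libraries 20998149 to 27447679. Levels are given as CPM, counts scaled to a common library size after adjustment by the trimmed mean of M-values (TMM). Eed itself was at 46.4 ± 6.11 CPM in control and 33.3 ± 3.90 in Eed cKO (SD, n = 3 each; log2 fold change -0.48, edgeR adjusted p 0.252), a whole-gene count that checks the deletion little because the position of the deletion is unknown here. The 6 basal keratinocyte and gate genes were present in every library, with Krt5 at 22623 ± 3399 CPM in control and 22537 ± 3674 in Eed cKO. Trp63 was at 2032 ± 60.2 and 1577 ± 165 CPM, with every control library above every Eed cKO library (log2 fold change -0.37, edgeR adjusted p 0.266). Of the 6 genes, 3 had a positive log2 fold change, and only Epcam was called. Of 14700 tested genes, edgeR called 499 higher in Eed cKO (3.39%) and 120 lower (0.816%) at an adjusted p under 0.05, which is 4.21% in either direction. Bulk libraries cannot tell more cells with a transcript from more RNA per cell.

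Because CpG-rich DNA around start sites is where PRC2 is known to act, the RefSeq promoter windows (GRCm38.p6; 250 bases before to 50 after a start) were read for the members, and 5 of the 7 had one. Sim2 and Dmrt1 had none, so the promoter values do not cover them. The 250 upstream bases of 2 genes that are high in Eed cKO, Dmrt2 (chr19:25672161-25672410) and Dmrta2 (chr4:109977775-109978024), are set beside those of Dmrta1 (chr4:89687948-89688197), which stayed near 0. All 3 are plus-strand sequences, written 5′ to 3′, with CpG dinucleotides in capitals. GENCODE has no coding-gene exon in any of these 3 stretches, but the first 2 overlap exons of antisense transcripts. The RefSeq start of Dmrta1 lies inside the GENCODE gene, which begins at 89679436, so its stretch is upstream of the RefSeq start only.
Dmrt2: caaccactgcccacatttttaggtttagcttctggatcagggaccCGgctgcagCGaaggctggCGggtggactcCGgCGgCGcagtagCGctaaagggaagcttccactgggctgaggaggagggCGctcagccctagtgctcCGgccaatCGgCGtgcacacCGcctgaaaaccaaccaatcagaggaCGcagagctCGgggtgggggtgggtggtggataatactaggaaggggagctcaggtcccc
Dmrta2: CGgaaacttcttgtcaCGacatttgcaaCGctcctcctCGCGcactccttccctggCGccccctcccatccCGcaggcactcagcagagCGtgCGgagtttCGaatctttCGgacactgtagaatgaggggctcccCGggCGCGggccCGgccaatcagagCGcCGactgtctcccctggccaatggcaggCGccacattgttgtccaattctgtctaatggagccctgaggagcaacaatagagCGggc
Dmrta1: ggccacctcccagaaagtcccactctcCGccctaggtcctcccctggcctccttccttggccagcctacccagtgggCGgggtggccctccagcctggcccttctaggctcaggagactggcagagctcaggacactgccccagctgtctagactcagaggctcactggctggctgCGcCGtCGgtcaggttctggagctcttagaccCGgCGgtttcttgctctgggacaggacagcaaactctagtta
The Sim1 and Dmrt3 windows are not printed, since 178 and 54 of their 250 upstream bases are exons of the gene itself in GENCODE. Over the full 300 bases from the RefSeq starts, Dmrta2 held 26 CpGs, Dmrt2 18, Dmrt3 15, and Dmrta1 and Sim1 13 each, against a median of 7 and an upper quartile of 20 over 32841 promoter windows. The Dmrta2 window was richer than 83.1% of all windows and the Dmrt2 window richer than 70.3%. Thus only Dmrta2 lay above the upper quartile, and all 5 lay above the median. GC content was 63.7% for Dmrta2, 62.7% for Dmrt2, 70.7% for Dmrt3, 65.3% for Dmrta1 and 46.0% for Sim1, where the median window had 52.7%.

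The windows were also searched on both strands for the core letters bound by each family. ACATTGT, the core of the DM-domain consensus, stood in 1 of the 5 windows, that of Dmrta2, and in 2.97% of all windows. Its first base was 55 bases before the RefSeq start (chr4:109977960-109977986, plus strand, motif in capitals).
Dmrta2 match: ggcaggcgccACATTGTtgtccaattc
The match is a description of the sequence only. ACGTG, the core of the element bound by Sim and Arnt dimers, stood in 0 of the 5 windows and in 19.6% of all windows.

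Sim2 was the most abundant of the 7 (chromosome 16, 94084931 to 94127032, GRCm38, as are all gene positions below). Control 1, 2 and 3 had 0.112, 0 and 0 CPM, and Eed cKO 1, 2 and 3 had 40.4, 26.1 and 28.5 CPM. The groups did not overlap, and the lowest Eed cKO library stood far above the highest control library. The control values are 3 reads, all in control 1. With counts pooled within a group, the Eed cKO to control ratio was 896 (exact 95% counting interval 306 to 4348), an interval that covers no more than counting error, as amplified RNA does not give independent reads. The fitted log2 fold change was 9.60 ± 0.58 (SE), the 10th largest of all tested genes, and 12.68 without control 1.

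Sim1, the hypothalamic paralog (chromosome 10, 50894754 to 50989152), stayed near 0. It had 0, 0 and 2 counts in control 1, 2 and 3, and 0, 1 and 13 counts in Eed cKO 1, 2 and 3. The groups overlapped, and 13 of the 16 counts lay in Eed cKO 3. The pooled ratio was 8.02 with a counting interval of 1.84 to 72.7, and rests on that library. Between the paralogs, the mean in Eed cKO per kilobase of exon was 7.50 ± 1.81 CPM for Sim2 and 0.0259 ± 0.0409 CPM for Sim1.

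Among the Dmrt genes, Dmrt3 (chromosome 19, 25610301 to 25623921) had no count in any control library. Its CPM was 11.1, 7.14 and 2.57 in Eed cKO 1, 2 and 3. All Eed cKO libraries were thus above control, with the level in Eed cKO 3 the lowest. Control counts of 0 were set against a floor of 3 counts over the group (0.0359 CPM). Pooled Eed cKO counts were 205 times that floor, a ratio that leaves out the counting error of the Eed cKO counts.

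Dmrt2, the somite factor, lies 48.5 kb from Dmrt3 on the same strand (chromosome 19, 25672411 to 25678991). Its CPM was 0.224, 0 and 0 in control 1, 2 and 3, and 4.70, 2.13 and 7.94 in Eed cKO 1, 2 and 3. The groups did not overlap. All 6 control counts were in control 1. The pooled ratio was 66.0 (counting interval 30.0 to 181), and the fitted log2 fold change was 5.98 ± 1.06 (SE), or 10.00 without control 1.

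Dmrta2, the telencephalic factor (chromosome 4, 109978053 to 109983687), was the member with the most signal in control. Its CPM was 0.599, 0.160 and 0.312 in control 1, 2 and 3, and 4.52, 2.17 and 2.90 in Eed cKO 1, 2 and 3. Every control library held reads, and the groups were still apart. The pooled ratio was 9.40 (counting interval 6.38 to 14.3) and the fitted log2 fold change 3.15 ± 0.75 (SE), the smallest among the 4 tested members.

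The remaining members were hardly detected. Dmrt1, the testis factor (chromosome 19, 25505618 to 25604329), had 0 control counts and 8, 0 and 0 counts in Eed cKO 1, 2 and 3, although it ends 6.0 kb before Dmrt3. Dmrta1, the paralog of Dmrta2 (chromosome 4, 89679436 to 89694772), had 0 control counts and 1, 0 and 10 counts in Eed cKO 1, 2 and 3. In both genes the groups overlapped, because at least 1 Eed cKO library was at 0. Pooled Eed cKO counts were 3.05 times the control floor of 3 counts for Dmrt1 and 4.20 times it for Dmrta1, each resting mainly on 1 library. These ratios have no counting interval and are not lower limits. Such concentration was common at this depth: of 917 symbols with 8 to 16 counts in all, 30.5% had at least 80% of them in 1 library, as did Dmrt1 (100.0%), Dmrta1 (90.9%) and Sim1 (81.2%).

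**Figure D1:**
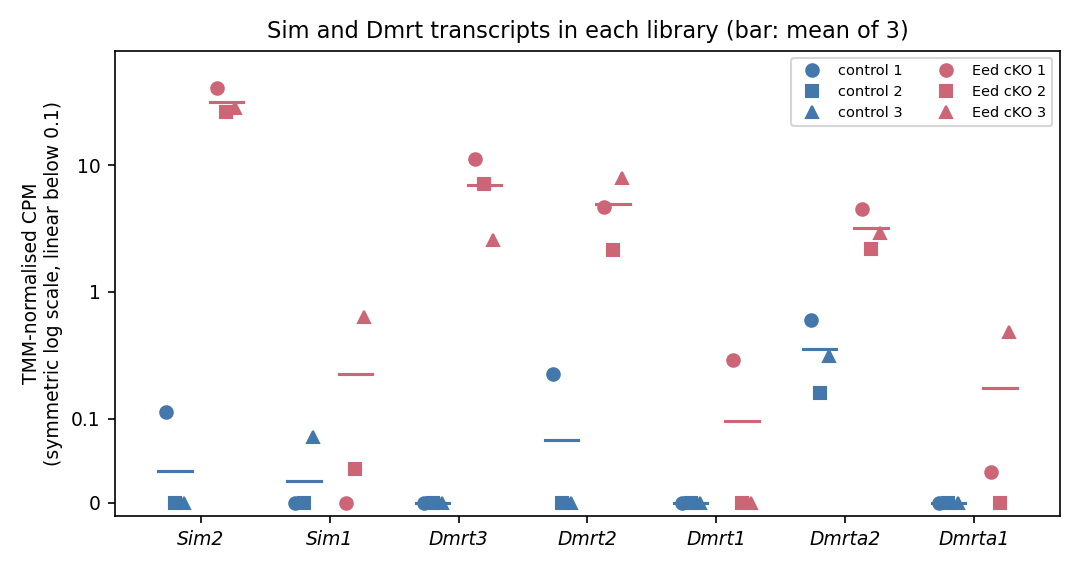
TMM-normalised CPM of each Sim and Dmrt gene (vertical axis, symmetric log scale that is linear below 0.1) in 3 control (blue) and 3 Eed cKO (red) libraries, with marker shape giving the library number and bars the means. Sim2, Dmrt3, Dmrt2 and Dmrta2 have all Eed cKO libraries above all control libraries, whereas Sim1, Dmrt1 and Dmrta1 have Eed cKO libraries at 0.

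In total, 4 of the 7 members passed the filter on low counts (Sim2, Dmrt2, Dmrt3 and Dmrta2), and all 4 were called higher. Higher calls made up 3.39% of all genes tested, but the members were chosen on this contrast and nothing is read from that difference. The same 4 had every Eed cKO library above every control library, which held for 11.0% of all tested genes and 7.69% of all counted symbols, and the opposite order for 9.22% of tested genes. A gene this low in control passes the filter only where Eed cKO expresses it, so the median log2 fold change of the 4 (7.79, against -0.01 over all tested genes) is a description of them only. Leaving out Eed cKO 3 left 2 calls, Sim2 and Dmrt3. Dmrta2 was also not called in limma-voom or without control 2, control 3 or any 1 of the Eed cKO libraries. Sim2 and Dmrt3 were called in every fit that was run.

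**Figure D2:**
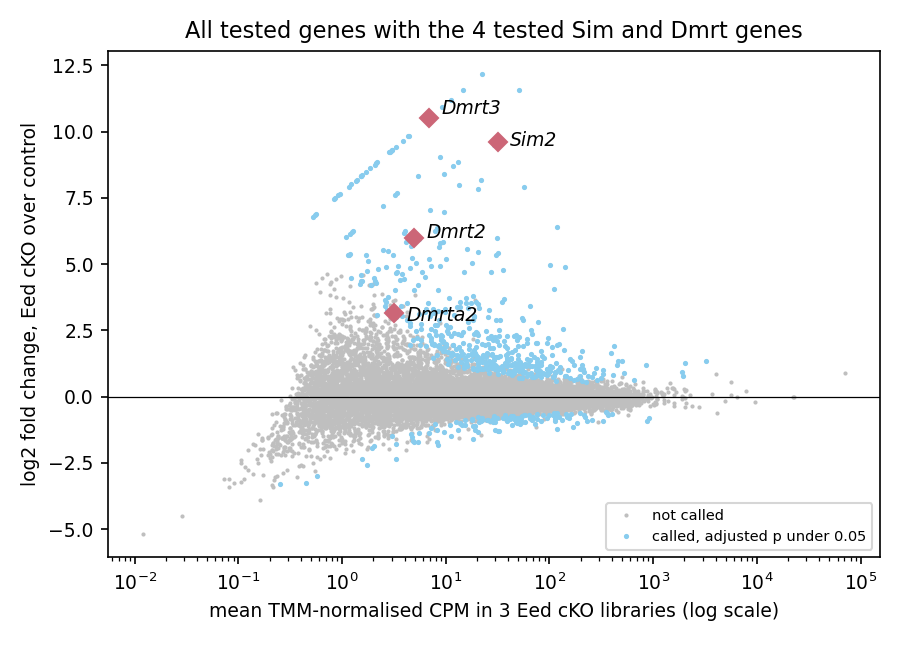
Fitted log2 fold change (vertical axis) against mean CPM in the 3 Eed cKO libraries (horizontal axis, log scale) for 14700 tested genes, with called genes in blue and the 4 tested Sim and Dmrt genes as red diamonds. Dmrt3 lies on the diagonal line of genes with no control count, whose fitted value depends on the prior count of the model. Dmrta2 has the smallest fitted value of the 4.

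Levels between members were compared per kilobase of GENCODE exon. In Eed cKO the order was Sim2 (7.50 ± 1.81 CPM per kb, SD, n = 3), Dmrt3 (2.84 ± 1.75), Dmrt2 (2.11 ± 1.25) and Dmrta2 (1.09 ± 0.411), followed by Dmrta1, Dmrt1 and Sim1, all below 0.05. Dmrt3 and Dmrt2 did not differ beyond their spread and changed order between libraries. The means of Dmrt2 and Dmrta2 also differed by less than the SD of Dmrt2, but Dmrta2 was below Dmrt2 in every Eed cKO library, at 0.769, 0.815 and 0.293 of it in libraries 1, 2 and 3. Sim2 stood above Dmrt3 in every Eed cKO library, by 2.10, 2.12 and 6.43 times in libraries 1, 2 and 3. In the same units, 62.5% of tested genes lay below Sim2 in Eed cKO, 38.4% below Dmrt3, 32.6% below Dmrt2 and 22.3% below Dmrta2. In control, 0.375% of tested genes lay below Sim2. In control the order differed, with Dmrta2 highest at 0.122 ± 0.0762 CPM per kb, ahead of Dmrt2 (0.0320 ± 0.0554) and Sim2 (0.00886 ± 0.0153). No control order among the last 2 can be read from 6 and 3 reads that lie in 1 library.

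The 4 expressed members were not spread alike over the Eed cKO libraries. Of the CPM summed over these libraries, Sim2 had 42.5%, 27.5% and 30.0% in libraries 1, 2 and 3. Dmrta2 had 47.1%, 22.6% and 30.3%, the same order as Sim2. Dmrt3 had 53.4%, 34.3% and 12.3%, and its neighbour Dmrt2 had 31.8%, 14.4% and 53.8%. The 2 genes of the cluster on chromosome 19 thus had their extremes in opposite libraries, Dmrt3 lowest and Dmrt2 highest in Eed cKO 3. Per kilobase, Dmrt3 exceeded Dmrt2 by 2.26 and 3.21 times in libraries 1 and 2 and was at 0.309 of it in library 3. The ratio of Sim2 to Dmrta2, on different chromosomes, varied less, at 6.19, 8.35 and 6.78. With 3 libraries these orders are descriptions of the libraries.

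**Figure D3:**
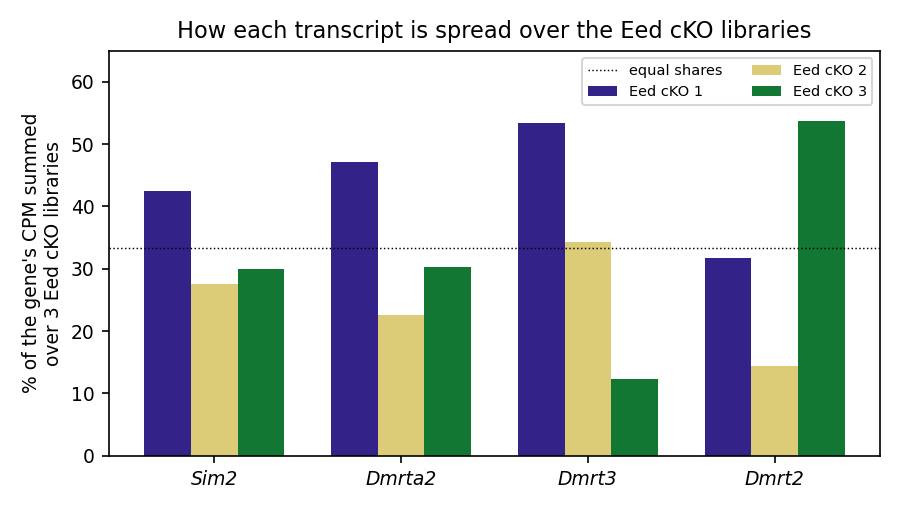
Share of each gene's CPM summed over the 3 Eed cKO libraries (vertical axis, %) that each library holds, for Sim2, Dmrta2, Dmrt3 and Dmrt2, with a dotted line at equal shares. Sim2 and Dmrta2 are highest in Eed cKO 1, and Dmrt3 and Dmrt2 have their lowest and highest share, 12.3% and 53.8%, in Eed cKO 3.

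Genes with the most similar profile were sought for each tested member, as the smallest Euclidean distance between shares of summed CPM over the 6 libraries. Symbols of predicted genes, cDNA clones, microRNAs and small nucleolar RNAs were left out, so each member was compared with 13585 other tested genes. Since these genes are picked for likeness to a member on the same libraries, their own rise is a description. The closest to Sim2 was Nap1l2, a nucleosome assembly protein gene (distance 0.0236), then Snhg11 (0.0406) and Prdm16, a zinc-finger regulator (0.0419). The closest to Dmrt3 were the LIM homeobox gene Isl1 (0.0269) and the limb gene Hoxa11 (0.0352), both without a control count, then the transporter gene Slc47a1. The closest to Dmrt2 was Aldh1a2 (0.0250), which encodes a retinoic acid synthesis enzyme, with CPM of 0 in all control libraries and 1.38, 0.562 and 2.23 in Eed cKO 1, 2 and 3. Klhdc8a (0.0790) and Dscaml1 (0.0859) followed. The closest to Dmrta2 were Trim9 (0.0355), Prdm8 (0.0455) and Slc38a3 (0.0471). Among the members themselves, Sim2 and Dmrta2 were the closest pair (0.0997) and Dmrt2 and Dmrt3 the farthest (0.504).

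Whether the rise extended to adjoining genes was asked of the nearest coding genes, up to 2 on each side of each locus. Some of these lie far off. Chaf1b and Ripply3 are 178.8 and 201.4 kb from Sim2. Kank1, Dock8 and Smarca2 are 71.1, 303.2 and 926.1 kb from the Dmrt cluster on chromosome 19. Lilr4b is 491.5 kb from Sim1, and Elavl2 is 1556.0 kb from Dmrta1. Around Sim2, Hlcs begins only 1.9 kb away and had 37.6 ± 9.68 CPM in control and 54.4 ± 11.8 in Eed cKO (log2 fold change 0.53, edgeR adjusted p 0.292). Ripply3 (log2 fold change 0.44, edgeR adjusted p 0.533) and Chaf1b (-0.67, edgeR adjusted p 0.0733) were not called either, and the tight junction gene Cldn14 had no count in any library. Beside the Dmrt1-Dmrt3-Dmrt2 cluster, Kank1 (log2 fold change 0.64, edgeR adjusted p 0.0745), Dock8 (-0.05, edgeR adjusted p 0.947) and Smarca2 (-0.45, edgeR adjusted p 0.142) were not called, though Kank1 passed in DESeq2 (adjusted p 0.0259), with no filter on low counts (edgeR adjusted p 0.0240) and without Eed cKO 1 (edgeR adjusted p 0.0487). Chaf1b passed in DESeq2 (adjusted p 0.0232) and with no filter (edgeR adjusted p 0.0477). Beside Dmrta2, Faf1 lies 14.1 kb away (log2 fold change 0.14, edgeR adjusted p 0.832) and Cdkn2c 310.9 kb away (-0.37, edgeR adjusted p 0.622), and Elavl4 and Agbl4 were below the filter. None of the 8 tested neighbours of the expressed members was called in the edgeR test with all libraries. Calls in either direction made up 4.21% of all tested genes, so none among 8 is near that share and nothing is read from it.

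Dmrta1 stayed near 0, while Cdkn2b and Cdkn2a rose. These cell cycle inhibitor genes are its nearest coding neighbours, but lie 368.4 and 384.8 kb away. Higher calls made up 3.39% of all tested genes, and nothing about the locus is read from these rises. Cdkn2b had CPM of 0.337, 0.863 and 0.508 in control 1, 2 and 3 and of 7.43, 7.26 and 5.42 in Eed cKO 1, 2 and 3 (log2 fold change 3.54 ± 0.54 SE, edgeR adjusted p 0.00167). Cdkn2a had no control count and CPM of 0.802, 2.69 and 1.11 in Eed cKO 1, 2 and 3. Its pooled Eed cKO counts were 42.8 times the control floor of 3 counts. It was called (edgeR adjusted p 0.00883), a call lost without Eed cKO 2 (edgeR adjusted p 0.0738). On the other side Elavl2 was not called (log2 fold change 1.99, edgeR adjusted p 0.246) and Zfp352 was below the filter. Near Sim1, Ascc3 was level (log2 fold change 0.07, edgeR adjusted p 0.918), Lilr4b was not called (-0.86, edgeR adjusted p 0.718) and Grik2 had 1 count in all.

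**Figure D4:**
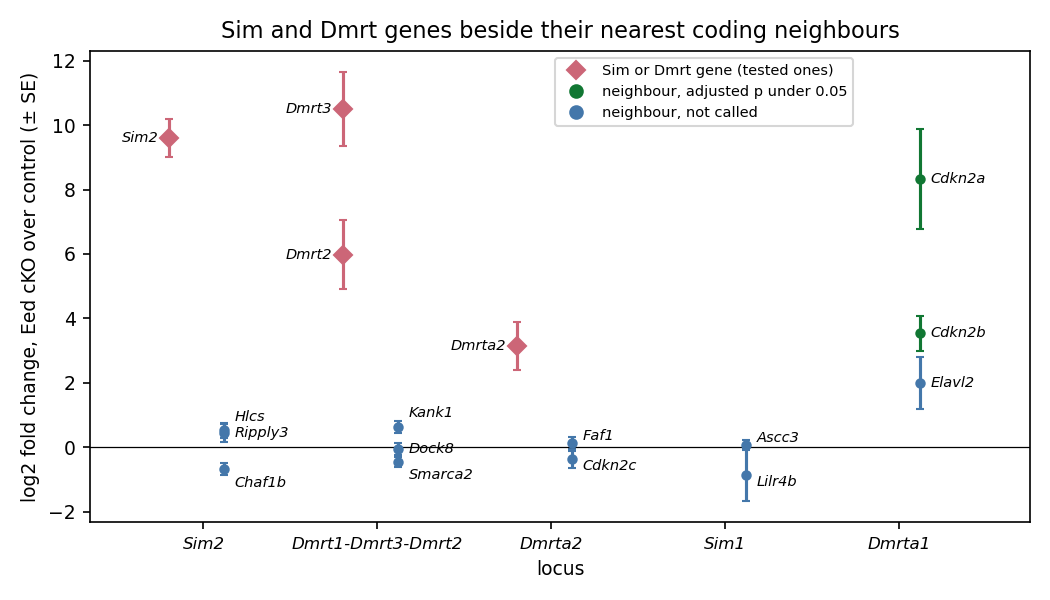
Fitted log2 fold change (vertical axis, ± SE) of the tested Sim and Dmrt genes (red diamonds) and of their tested nearest coding neighbours (circles, green where called) at 5 loci. Neighbours of Sim2, the Dmrt cluster, Dmrta2 and Sim1 lie between -0.86 and 0.64, and at the Dmrta1 locus Cdkn2a and Cdkn2b are called; Cdkn2a and Dmrt3 have no control count, so their fitted values depend on the prior count.

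Known dimer partners of Sim proteins had reads in every control library. Arnt, the common dimer partner of Sim proteins, was at 124 ± 29.7 CPM in control and 142 ± 12.7 in Eed cKO (log2 fold change 0.19, edgeR adjusted p 0.741), and Arnt2 at 4.43 ± 2.31 and 5.29 ± 1.23 CPM (0.26, edgeR adjusted p 0.891). Of 17 bHLH-PAS partners, relatives and coactivators, 16 were tested, and 0 rose, 0 fell and 16 did not pass, with a median log2 fold change of -0.03, where that of all tested genes was -0.01. Calls in either direction made up 4.21% of all tested genes, so this count is near that share. Of the 17, those with the highest mean CPM over all 6 libraries, not scaled by length, were Ahr, the dioxin receptor gene (284 ± 44.0 and 312 ± 92.7 CPM), the coactivator gene Ncoa2 (201 ± 24.0 and 149 ± 16.5) and the hypoxia factor gene Hif1a (129 ± 19.6 and 145 ± 15.1). The neural relative Npas3 had 8 control and 148 Eed cKO counts (pooled ratio 21.2) without passing (edgeR adjusted p 0.0741). Of the 6 other DM-domain genes, 5 had no count in any library, and Dmrtb1 had 10 counts, all in Eed cKO 2.

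Genes that act with Sim1 in the hypothalamus were not seen. Of 8 (Otp, Pou3f2, Mc4r, Oxt, Avp, Crh, Trh and Sst), 7 had no count in any library and Avp had 3 counts in Eed cKO 3, so none was tested. For the gonad, 4 of 14 genes around Dmrt1 were tested, and 1 rose, 0 fell and 3 did not pass (median log2 fold change 1.62). Over all tested genes, 3.39% were called higher. Gata4, a factor of gonad, heart and endoderm, had CPM of 0.0748, 0 and 0.0391 in control 1, 2 and 3 and of 40.1, 20.2 and 28.1 in Eed cKO 1, 2 and 3 (log2 fold change 9.50 ± 0.55 SE, edgeR adjusted p 2.43e-07). Sox9 (log2 fold change 0.61, edgeR adjusted p 0.177), Rspo1 (2.62, edgeR adjusted p 0.118) and Wnt4 (-0.68, edgeR adjusted p 0.0672) did not pass. Wnt4 did pass as lower in DESeq2 (adjusted p 0.0169), limma-voom (adjusted p 0.0382), with no filter (edgeR adjusted p 0.0105) and without Eed cKO 1 (edgeR adjusted p 0.0127), and Sox9 as higher with no filter (edgeR adjusted p 0.0423). Sox9 and Wnt4 are expressed in skin epithelium as well. Stra8, Nr5a1, Nr0b1, Cyp19a1 and Foxl2, which mark germ cells or gonadal somatic cells, had 11 counts or fewer over all libraries. Those of Foxl2 were all in Eed cKO, with 2, 7 and 2 in libraries 1, 2 and 3. Sox8, Amh, Wt1, Fgf9 and Ptgds were below the filter too. They had 0, 12, 4, 15 and 3 control counts and 5, 13, 12, 29 and 13 Eed cKO counts.

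Around Dmrt2, which with Pax3 is known to activate Myf5 in the dermomyotome, the list split. Pax3 had CPM of 0, 0.320 and 0.703 in control 1, 2 and 3 and of 13.6, 15.9 and 18.9 in Eed cKO 1, 2 and 3 (log2 fold change 5.56 ± 0.68 SE, edgeR adjusted p 0.000274). The muscle determination genes Myf5 and Myod1 had no count in any library, and Pax7 and Lbx1 had 1 count each. Of the 10 genes 3 were tested, and 1 rose, 0 fell and 2 did not pass (Tbx6 and Meox1), with a median log2 fold change of 0.60. The share called higher over all tested genes was 3.39%. Myog had 1 control count and 0, 1 and 29 counts in Eed cKO 1, 2 and 3, mainly in the library where Dmrt2 was highest. Meox2 had 17 control counts and 86, 0 and 0 counts in Eed cKO 1, 2 and 3, so its reads sat in another library. Both genes were below the filter, and no link to Dmrt2 is read from 1 library. The summed CPM of 6 skeletal muscle markers (Acta1, Ckm, Myh3, Myog, Des and Tnnt3) was 3.26 to 4.06 in control and 0.838 to 3.87 in Eed cKO, and none of the 2 tested markers passed.

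Around Dmrt3 and the Dmrta genes, several factors that pattern the telencephalon rose. Of 12 genes 6 were tested, and 3 rose, 0 fell and 3 did not pass, with a median log2 fold change of 3.02 where all tested genes had -0.01. Higher calls made up 3.39% of all tested genes. As with the members, genes this low in control are tested only where Eed cKO expresses them. The calls and medians of the gonad, somite and telencephalon lists therefore describe their tested genes only, and nothing is read from their difference from that share. Emx2, which patterns the cortex as Dmrta2 does, had CPM of 0.0748, 0.288 and 0.0781 in control 1, 2 and 3 and of 10.0, 7.71 and 8.37 in Eed cKO 1, 2 and 3 (log2 fold change 5.80 ± 0.61 SE, edgeR adjusted p 7.91e-05). The eye and forebrain gene Pax6 (log2 fold change 4.93, edgeR adjusted p 0.00146) and the interneuron gene Dlx2 (5.83, edgeR adjusted p 0.00442) rose too, and Dlx2 was at 9.72 without control 2, which held all of its control reads. Lhx2, a hair follicle gene as well, was not called (log2 fold change 1.10, edgeR adjusted p 0.0722) but passed without control 2 (edgeR adjusted p 0.00356), with no filter (edgeR adjusted p 0.00284), in DESeq2 (adjusted p 0.0149) and in limma-voom (adjusted p 0.0402). Wnt3a (-0.60, edgeR adjusted p 0.445) and Wnt2b (0.05, edgeR adjusted p 0.977) did not pass. The neurogenic gene Neurog2 was below the filter, and Gsx2, Bhlhe22, Evx1 and Emx1 had at most 1 count in all.

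**Figure D5:**
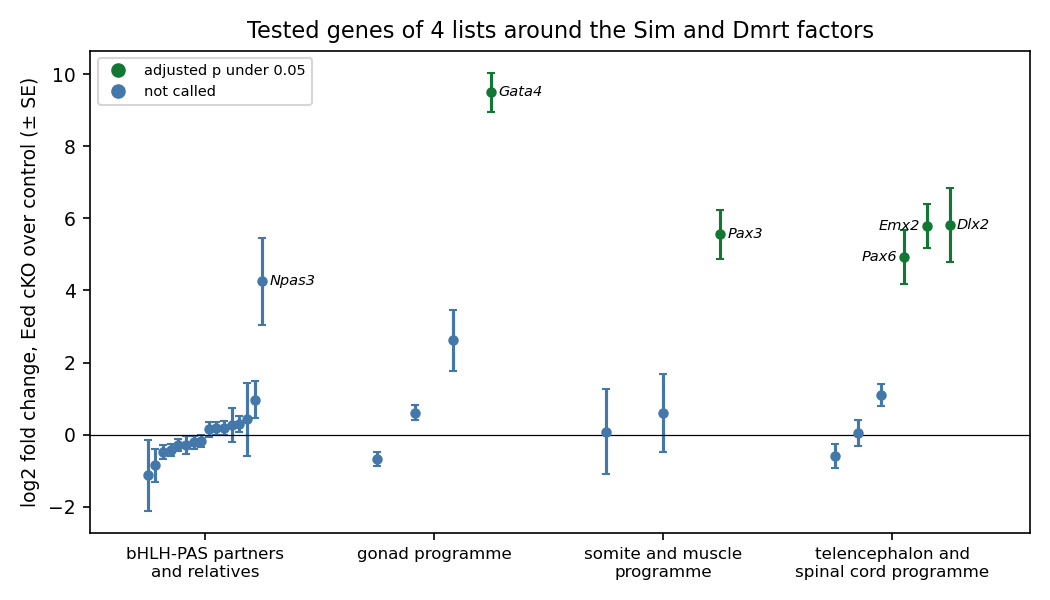
Fitted log2 fold change (vertical axis, ± SE) of the tested genes of 4 lists around the Sim and Dmrt factors, with genes called at an edgeR adjusted p under 0.05 in green. All 16 tested bHLH-PAS genes are uncalled, where 4.21% of all tested genes were called in either direction. Gata4, Pax3, Pax6, Emx2 and Dlx2 are called higher.

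Markers of other cells in the skin were read beside these values. The summed CPM of 6 neuron and Schwann cell markers was 3.59 to 5.14 in control and 3.72 to 14.2 in Eed cKO, and 0 of 6 tested markers passed. It was 386 to 579 and 566 to 649 for 7 dermal fibroblast markers, 8.90 to 25.4 and 10.9 to 19.9 for 6 melanocyte markers, 4.60 to 35.3 and 5.30 to 32.6 for 5 endothelial markers, and 102 to 370.5 and 42.6 to 276 for 6 immune markers. The summed CPM of 6 Merkel cell markers went with the genotype, as the 4 expressed members did, at 0.195 to 1.82 in control and 7.75 to 14.1 in Eed cKO. Among these markers only Krt8 overlapped between the groups, with 1.25 CPM in control 2 and 1.06, 1.16 and 1.21 in Eed cKO 1, 2 and 3. Of 6 Merkel markers, 4 were tested and 2 rose (Isl1 and Sox2), Krt8 and Krt18 did not pass, and Atoh1, Isl1 and Sox2 had no control count. Higher calls made up 3.39% of all tested genes, but Isl1 and Sox2 were tested only through their Eed cKO counts. Epcam, a gene of the gate, rose, with 82.1 ± 20.4 CPM in control and 139.7 ± 17.4 in Eed cKO (log2 fold change 0.77, edgeR adjusted p 0.0433), and among immune markers Cx3cr1 fell (-1.95, edgeR adjusted p 0.0281). The part of these differences in the levels of the Sim and Dmrt genes was not tested.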

How the data were processed

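The members, lists and alternatives were chosen with earlier results of these data known. The authors deposited 1 file of raw counts per library for 24453 gene symbols, with no normalization. The mm10 build, HTSeq 0.6.1, TopHat2 2.0.13, DESeq2 1.6.3 and Cufflinks 2.2.1 were used, per the submitters' processing notes, which name no role. Per the labels' protocols, libraries were made from amplified total RNA and sequenced as single reads. Annotation and strand setting are not given in the sources used.

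Counts were tested in R 4.3.3 with edgeR 4.0.16 (filterByExpr, 14700 genes kept and 9753 removed; TMM factors 0.979 to 1.04; quasi-likelihood F-test on genotype; Benjamini-Hochberg over all genes, threshold 0.05). The biological coefficient of variation was 0.334. Genes with no control count got a ratio against a floor of 3 counts over the control group, without an interval. Other pooled ratios got an exact binomial interval at 95%. The pipeline was tested on simulated data. Replicates of a group correlated at 0.968 to 0.978 (Pearson, log2 of CPM plus 1, across tested genes).

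Genes were named by rule: all 7 members, Eed and Ezh2, list genes past the threshold (up to 6 by p) and the 3 most abundant of each list, the nearest 2 coding genes on each side, and the 3 closest profiles per tested member. Other genes named, such as Npas3, Arnt, Arnt2, Rspo1, list members under the filter and cell type markers, were chosen after their values were seen. Some genes of the telencephalon list are not reported here. Ezh2, a PRC2 subunit gene, was at 183 ± 49.5 CPM in control and 114 ± 27.0 in Eed cKO (SD, n = 3 each; edgeR adjusted p 0.120). Positions and exon lengths are GENCODE M21 on GRCm38, which mm10 names. Of the symbols, 23797 matched, and no member shared exonic bases with another gene. Tried as alternatives were DESeq2 1.42.0, limma-voom (limma 3.58.1), upper-quartile or RLE scaling, omitting the low-count filter, a filter of 1 CPM in 3 libraries, blocking on replicate number, and dropping each library in turn.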

Additional observations from a re-analysis of the deposited data

How the results depend on the processing

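The 4 expressed members kept their direction under every alternative that was run. All 4 were called under RLE and upper-quartile scaling, without the low-count filter, with 1 CPM in 3 libraries and in DESeq2, and 3 in limma-voom. Without the low-count filter all 7 members were tested, and Sim1, Dmrt1 and Dmrta1 were not called. DESeq2 tested 5 members and called only these 4. Dropping 1 library left 2 to 4 calls, with the fewest without Eed cKO 3. Genes called higher numbered 499 in edgeR, 814 in DESeq2 and 302 to 456 with 1 library dropped. Genes called lower numbered 120, against 257 with no filter, 273 in DESeq2 and 35 to 118 with 1 library dropped. The cause was not tested, except that dropping a library leaves fewer samples.

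The labels do not say whether a replicate number pairs libraries, so the libraries were treated as unpaired. A check of shared deviations cannot decide the pairing, because deviations from a group mean of 3 libraries depend on each other. Deviations of same-numbered libraries correlated at 0.23, 0.108 and -0.00138, and control 3 correlated best with Eed cKO 2 (0.0542), whereas control 1 and 2 correlated best with their own number. With the replicate block, all 4 members were called (log2 fold change 9.63 for Sim2, 6.24 for Dmrt2, 10.50 for Dmrt3 and 3.25 for Dmrta2), 675 genes were higher and 269 lower. Uncalled genes that passed with the block, by edgeR adjusted p, were Kank1 (0.0161), Chaf1b (0.0461), Lhx2 (0.0136), Wnt4 (0.00825), Sox9 (0.0273), Dscaml1 (0.0130) and Ezh2 (0.0123).

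Direction turned for some genes near 0. The log2 fold change of Ahr (0.14) ran from -0.11 to 0.32 with 1 library dropped, that of Tbx6 (0.60) from -0.09 to 1.32, of Wnt2b (0.05) from -0.25 to 0.37, of Ascc3 (0.07) from -0.03 to 0.12, of Dock8 (-0.05) from -0.14 to 0.07 and of Faf1 (0.14) from -0.02 to 0.27. Among values of single genes under an alternative, 511 kept direction and call, 27 gained a call, 33 lost one and 9 turned. Depth limits Sim1, Dmrt1 and Dmrta1, whose 16, 8 and 11 counts allow no order between groups.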
